A study of Arabidopsis thaliana with 4 samples.

Results

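The chloroplast genome of Arabidopsis thaliana carries, besides the genes of the photosystems, genes for the NDH complex, for an RNA polymerase and for parts of its own ribosome, and 33 such genes are described here. They are all probe sets, of 22810 on the array, that the platform annotation pairs with a single gene named ndhA to ndhK, rpoA, rpoB, rpoC1, rpoC2, matK, clpP, accD, ccsA, cemA, ycf3 or ycf4, or with one of a fixed set of rps and rpl genes. Each of the 33 has 1 probe set, and RefSeq places all 33 genes on the plastid chromosome of assembly TAIR10.1. They comprise 10 NDH genes, 4 RNA polymerase genes, 12 ribosomal protein genes and 7 others. The symbol and the annotation are the basis of the choice. The rule uses no measured value, but it was set with earlier results of these data known.

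Total RNA came from leaf discs of Col-0 wild-type plants, cut from full-grown source leaves at the end of the night, floated for 1 h in darkness on 2 mM MES buffer and then frozen. DTT discs had 5 mM dithiothreitol in the buffer, a membrane-permeant reductant of disulfide bonds, and control discs had buffer alone. Each group had 2 Affymetrix ATH1 arrays, described by the submitters as biological replicates and called here DTT 1, DTT 2, control 1 and control 2. The study addressed the effect of redox status on gene expression, and the number of arrays limits the precision of every value.

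The NDH complex is a thylakoid relative of respiratory complex I that passes electrons from ferredoxin to plastoquinone and takes part in cyclic electron flow and chlororespiration. The plastid-encoded polymerase has a bacterial-type core made from the rpo genes and takes its sigma factors from the nucleus, whereas the rpoB operon is mostly read by a phage-type polymerase of nuclear origin. Plastid genes are largely transcribed as polycistronic precursors that are cut into shorter RNAs, whose ends are usually set by stem-loops or bound proteins and not by a long poly(A) tail. How the labelling of these samples was primed is not given in the sources used here. The regulation of plastid genes is known for its dependence on the redox state of the photosynthetic chain and of stromal thiols.

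Values are linear MAS5 signals that the authors had scaled to a trimmed mean of 100 on every array, where the median signal lay between 25.4 and 32.8. Differences are on the log2 scale of the signal, as DTT minus control. Of the 33 members, 33 passed the filter on low mean signal, which left 13648 probe sets to test and lay at a signal of 16.9. Signals of different probe sets depend on their probes and are not set against each other. The arrays stood apart by replicate number before they did by treatment. Over the 9 hybridization control probe sets, which detect transcripts added at fixed amounts, the median ratio of replicate 1 to replicate 2 was 1.74 in DTT and 1.88 in control, while that of DTT to control was 0.998 in replicate 1 and 1.07 in replicate 2. Each change is therefore also given within each replicate number, where it rests on 1 array per group and has no test. A single-gene probe set was found for 1 of 14 nuclear mesophyll markers, RCA, the gene of rubisco activase. It had signals of 3808.7 and 2999.4 in DTT, against 4077.4 and 2751.6 in control. The guard cell marker FMA had signals of 26.0 and 31.6 in DTT and 31.4 and 23.8 in control, and epidermis, phloem, root and floral markers were not analysed here.

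No member was called different between DTT and control. Limma's moderated test with Benjamini-Hochberg adjustment called 0 of 13648 probe sets at an adjusted p under 0.05, which is 0% of those tested, and 0 of the 33 members. At an unadjusted p under 0.05 it held 95 probe sets, or 0.696%, and again 0 members. Without a block for replicate number, as in these counts, the smallest unadjusted p of a member was 0.208, for rpl36, and the smallest adjusted p was 0.9999. With such a block, limma called 0.923% of all probe sets at an adjusted p under 0.05 and again 0 members. At an unadjusted p under 0.05 the block fit held 6 of the 33 members (ndhD, ndhG, ndhH, rpl36, rpoB and rps15), where it held 1092 of all 13648 probe sets, or 8%. The smallest adjusted p of a member was then 0.0510, for ndhH and for rps15. In RNA of whole discs, fewer cells of a type and less RNA per cell cannot be told apart. The median log2 change of the 33 members was -0.18, against -0.01 over all probe sets tested, and single members ranged from -1.14 for ndhH to 0.33 for rpoA.

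The members were lower on the DTT array more often in replicate 2 than in replicate 1, and the replicates shared little of their order. In replicate 1, 19 of 33 were lower in DTT, where 53.5% of all probe sets tested were lower, and the median change was -0.09, against -0.03 over all tested. In replicate 2, 24 of 33 were lower, where 49.0% of all were, and the median was -0.16, against 0.01. In both replicates 14 members were lower (27.0% of all tested) and 4 were higher (24.3% of all tested), and the other 15 moved in opposite directions. At least 2-fold lower in DTT were 1 member in replicate 1 (1.95% of all tested) and 3 in replicate 2 (2.30% of all tested), and 0 members were at least 2-fold higher in either replicate (1.14% and 0.601% of all tested). Across the 33 members, which share arrays and a plastid source, the changes of replicate 1 and replicate 2 correlated at r = 0.05 (Spearman's rho 0.10). Over all 13648 probe sets tested they correlated at r = 0.11 (rho 0.06), so the low value is not particular to the members. Both DTT arrays lay below both control arrays for 2 members (9.81% of all tested) and above them for 1 member (8.01% of all tested).

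**Figure D1:**
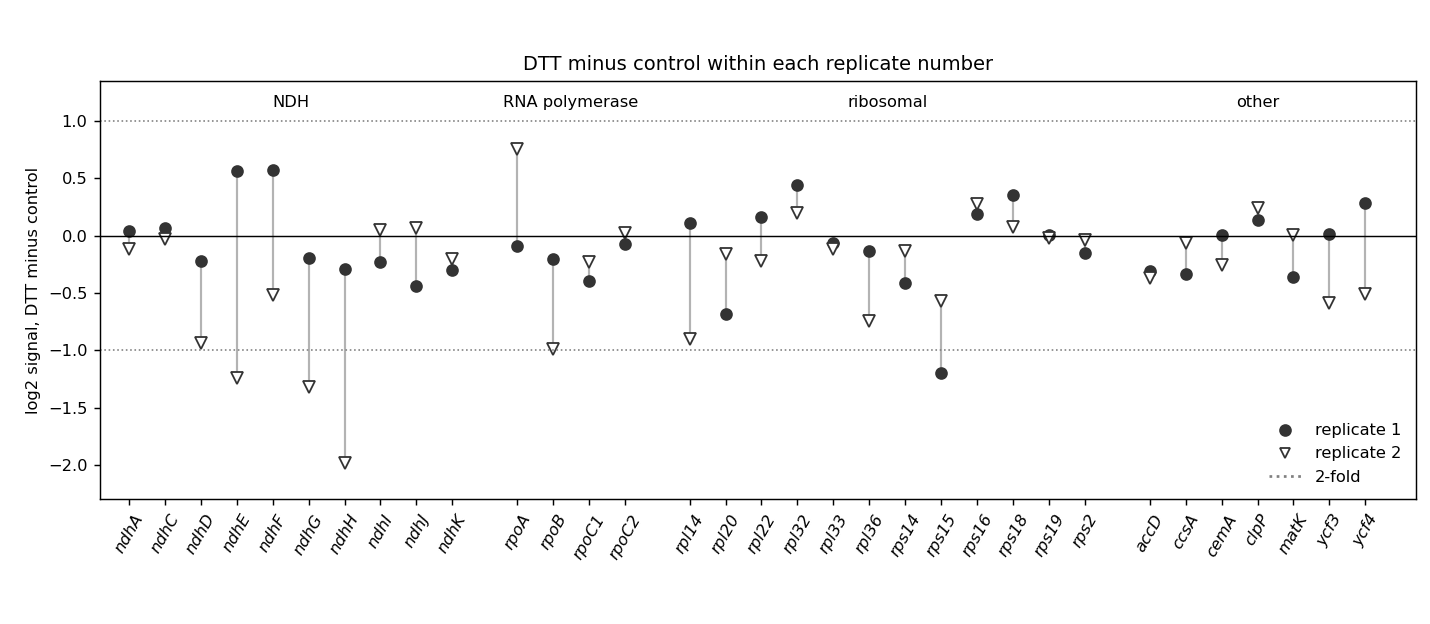
The log2 signal of DTT minus control is plotted for each of the 33 members within replicate 1 (filled circles) and replicate 2 (open triangles), 1 array per group each, with dotted lines at a 2-fold difference and a grey line joining the values of a gene. The open triangles of ndhE, ndhG and ndhH and the filled circle of rps15 lie below the lower dotted line, and no value lies above the upper one.

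Of the subgroups, the NDH genes held all 3 members that were at least 2-fold lower in DTT in replicate 2. Just short of that cut were rpoB (1.99-fold lower), ndhD (1.91-fold) and rpl14 (1.87-fold). The 10 NDH genes had a median log2 change of -0.21 in replicate 1 and -0.36 in replicate 2. In replicate 2, 8 of the 10 were lower in DTT and changes ran from -1.98 to 0.07, while in replicate 1, 6 were lower and changes ran from -0.44 to 0.58. The 4 RNA polymerase genes had medians of -0.15 and -0.10, with 4 of 4 lower in replicate 1 and 2 of 4 in replicate 2. The 12 ribosomal protein genes had medians of -0.03 and -0.13, with 6 and 9 lower. The 7 other genes had medians of 0.00 and -0.26, with 3 and 5 lower. Differences between these subgroups were not tested, since genes that share arrays and transcripts are not replicates.

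The NDH genes for subunits of the peripheral arm, which stands out into the stroma, are ndhH, ndhI, ndhJ and ndhK. For ndhH the signal was 255.7 (DTT 1) and 34.0 (DTT 2), against 313.5 (control 1) and 134.4 (control 2). DTT 2 was the low array, and the groups overlapped, since DTT 1 lay above control 2. On the log2 scale the change was -0.29 within replicate 1 and -1.98 within replicate 2, or 1.23-fold and 3.95-fold lower in DTT. The mean was -1.14 (standard error, SE, 1, limma adjusted p = 0.9999). Unless the block is named, each SE is from the fit without a block, which counts the distance between replicates as error. In the fit with the block the SE of ndhH was 0.29 (limma adjusted p = 0.0510). The iron-sulfur subunit gene ndhI had signals of 3970.7 and 3632.0 in DTT, against 4666.6 and 3510.0 in control, and its changes of -0.23 and 0.05 lay on either side of 0. For ndhK, of the iron-sulfur subunit next to the membrane, the changes were -0.30 and -0.20, and for ndhJ they were -0.44 and 0.07. Neither gene had DTT arrays clear of the control arrays.

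The membrane arm, which is related to the proton-pumping part of complex I, is encoded by ndhA to ndhG, of which ndhB was not a member because its probe set is annotated to both of its gene copies. For ndhG the signal was 792.9 (DTT 1) and 41.8 (DTT 2), against 905.8 (control 1) and 104.3 (control 2). Both arrays of replicate 2 were low, and within that replicate DTT was 2.50-fold lower (log2 -1.32), against 1.14-fold in replicate 1 (log2 -0.19). For ndhE the signal was 1208.8 (DTT 1) and 52.5 (DTT 2), against 818.5 (control 1) and 124.4 (control 2). DTT 1 was here the highest array and DTT 2 the lowest, and the log2 changes were 0.56 in replicate 1 and -1.24 in replicate 2. The mean changes were -0.76 for ndhG (SE 1.62) and -0.34 for ndhE (SE 1.62), each smaller than its standard error in the fit without a block. In the fit with the block the SE was 0.25 for ndhG and 0.29 for ndhE, each smaller than the change. The limma adjusted p was then 0.246 for ndhG and 0.917 for ndhE. For ndhF the signal was 241.2 (DTT 1) and 8.4 (DTT 2), against 161.7 (control 1) and 12 (control 2). Both signals of replicate 2 were under the filter level, and the changes of 0.58 and -0.51 had opposite signs. The changes of ndhD were -0.22 and -0.93, those of ndhC 0.07 and -0.03, and those of ndhA 0.04 and -0.11.

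In the RNA polymerase, rpoA encodes the alpha subunit, rpoB the beta subunit, and rpoC1 and rpoC2 the parts of what is a single beta-prime subunit in most bacteria. For rpoA the signal was 2646.3 (DTT 1) and 3059.7 (DTT 2), against 2819.4 (control 1) and 1811.7 (control 2). Control 2 was the low array and the other 3 lay close together, and the log2 changes were -0.09 in replicate 1 and 0.76 in replicate 2, the highest of any member there. For rpoB the signal was 209.5 (DTT 1) and 8.9 (DTT 2), against 240.9 (control 1) and 17.7 (control 2). DTT 2 lay under the filter level and control 2 just above it, and the changes were -0.20 and -0.99. The changes were -0.40 and -0.23 for rpoC1 and -0.07 and 0.03 for rpoC2. The mean changes were 0.33 for rpoA (SE 0.31), -0.60 for rpoB (SE 1.81), -0.31 for rpoC1 (SE 0.37) and -0.02 for rpoC2 (SE 0.42), each with a limma adjusted p of 0.9999.

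The ribosomal genes included the only 3 members whose groups did not overlap. The 50S protein gene rpl36 gave signals of 1884.3 and 1235.1 in DTT, against 2069.0 and 2067.0 in control, and log2 changes of -0.13 and -0.74. Its DTT arrays thus lay below control arrays that were nearly equal, with DTT 2 the lower of them. The 50S protein gene rpl33 had 1758.5 and 1728.7 in DTT, against 1832.3 and 1878.0 in control, and its changes of -0.06 and -0.12 were small in both replicates. The 30S protein gene rps18, its neighbour in the genome, had 635.3 and 662.5 in DTT, against 496.3 and 628.0 in control, with changes of 0.36 and 0.08. The mean changes were -0.44 for rpl36 (SE 0.31), -0.09 for rpl33 (SE 0.25) and 0.22 for rps18 (SE 0.30), each with a limma adjusted p of 0.9999. Over all 33 members, 2 below and 1 above make up smaller shares than the 9.81% and 8.01% of all probe sets tested. Among the 12 ribosomal genes alone the shares are not smaller. A count of so few genes was not tested and is no result about the ribosomal genes.

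The 30S protein gene rps15 had the largest difference of any member in replicate 1. Its signal was 693.3 (DTT 1) and 195.4 (DTT 2), against 1593.3 (control 1) and 290.4 (control 2). DTT was 2.30-fold lower in replicate 1 (log2 -1.20) and 1.49-fold lower in replicate 2 (log2 -0.57), so that the sign was the same while both arrays of replicate 2 lay below both of replicate 1. The mean change was -0.89 (SE 0.97, limma adjusted p = 0.9999). In the fit with the block its SE was 0.22 (limma adjusted p = 0.0510). For rps14 the signal was 551.8 (DTT 1) and 13.1 (DTT 2), against 736.2 (control 1) and 14.4 (control 2), with changes of -0.42 and -0.14. The signals of replicate 2 were under the filter level in both groups. For rps16 the signals were 393.1 and 259.3 in DTT, against 344.2 and 214.1 in control, and for rps19 they were 3028.4 and 2498.8 in DTT, against 3008.8 and 2527.3 in control. The changes of rps16 were 0.19 and 0.28. Those of rps19 were 0.01 and -0.02, smaller than the distance between its replicates. Of the remaining ribosomal members, rpl32 had 0.45 and 0.20, rpl20 had -0.69 and -0.16, rpl14 had 0.12 and -0.90, rpl22 had 0.17 and -0.22, and rps2 had -0.15 and -0.04.

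Among the other genes, ycf3 and ycf4 encode factors for the assembly of photosystem I, ccsA a protein for the attachment of haem to plastid cytochromes, and cemA a protein of the inner envelope. The signal of ycf3 was 714.8 (DTT 1) and 124.3 (DTT 2), against 707.9 (control 1) and 186.9 (control 2), with log2 changes of 0.01 and -0.59. That of cemA was 3083.3 and 2496.6 in DTT, against 3075.6 and 2984.0 in control, with changes of 0.00 and -0.26. In both genes DTT 2 was the lowest array and the arrays of replicate 1 were nearly equal. The changes were 0.28 and -0.51 for ycf4, -0.34 and -0.07 for ccsA, -0.36 and 0.01 for matK, a maturase of group II introns, -0.31 and -0.37 for accD, the carboxyltransferase beta subunit of acetyl-CoA carboxylase, and 0.13 and 0.24 for clpP, a proteolytic subunit of the Clp protease. Only accD and clpP kept their sign with like sizes in both replicates, and accD was also 3.34-fold higher on DTT 1 than on DTT 2 and 3.20-fold higher on control 1 than on control 2.

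**Figure D2:**
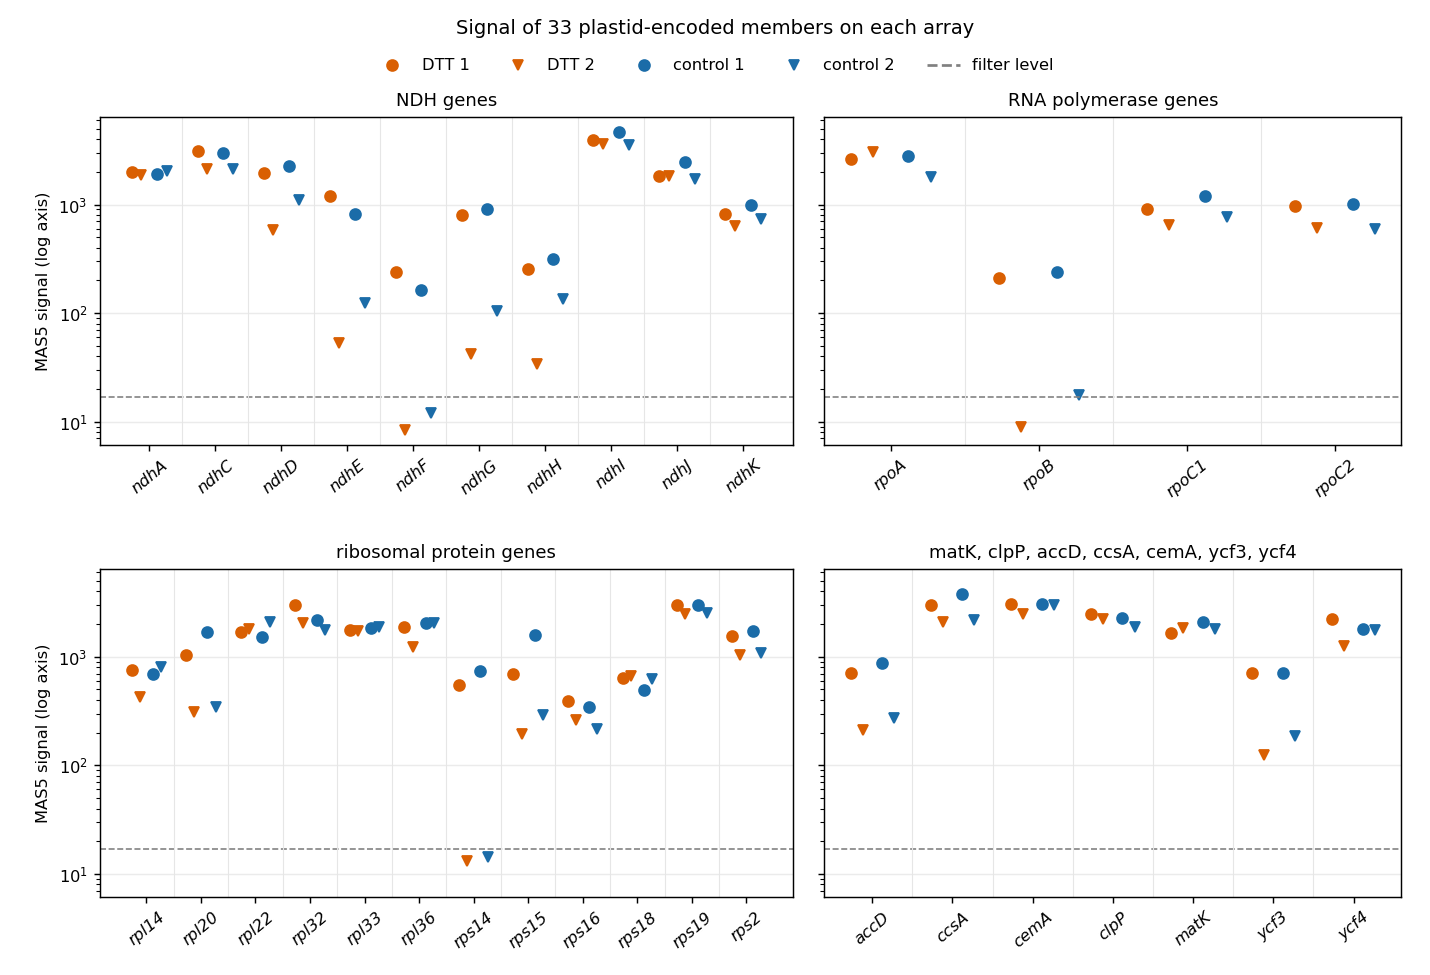
The MAS5 signal on a log axis is plotted for the 33 members in 4 panels by subgroup, with DTT arrays in orange left of control arrays in blue, circles for replicate 1 and triangles for replicate 2, and a dashed line at the filter level of 16.9. Heights of different genes are not comparable. For ndhE, ndhF, ndhG, rpoB and rps14 both triangles lie far below both circles, while for ndhA, rpl33 and rps18 all 4 points lie close together.

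The distance between the arrays of one group exceeded the difference between the groups for many members. In DTT, replicate 1 was at least 2-fold above replicate 2 for 11 of 33 members (12.9% of all tested), and in control for 11 (8.93% of all tested). They were the same 11 genes, namely accD, ndhD, ndhE, ndhF, ndhG, ndhH, rpl20, rpoB, rps14, rps15 and ycf3, where 5.34% of all probe sets tested showed this in both groups. For 0 members was replicate 2 at least 2-fold above replicate 1, against 8.03% of all tested in DTT and 4.65% in control. The ratio of replicate 1 to replicate 2 reached 42.1 in DTT and 51.1 in control for rps14, 28.7 and 13.5 for ndhF, 23.5 and 13.6 for rpoB, 23 and 6.58 for ndhE, and 19 and 8.68 for ndhG. The other 22 members had ratios from 0.865 to 1.77 in DTT and from 0.723 to 1.73 in control. Across the 33 members the log2 distance in DTT and that in control correlated at r = 0.93 (Spearman's rho 0.77), and over all 13648 probe sets tested at r = 0.75. The points share their arrays and their scaling.

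**Figure D3:**
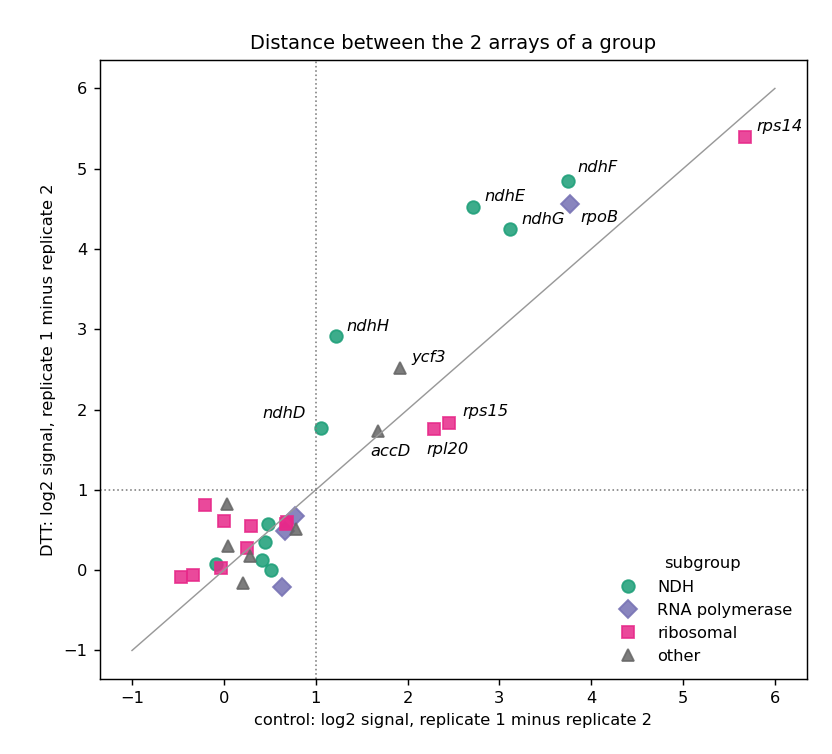
Each point is 1 of the 33 members, with the log2 signal of replicate 1 minus replicate 2 in DTT on the vertical axis and in control on the horizontal axis, marked by subgroup. The 11 named genes lie beyond 2-fold (dotted lines) on both axes, and the other 22 lie within 2-fold on both. The solid line marks equal distances.

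Of the 24 members that were lower in DTT in replicate 2, 11 were among these genes and 13 among the other 22. In replicate 2, 11 of the 11 were lower in DTT, with a median log2 change of -0.59 and a range from -1.98 to -0.14, and in replicate 1, 8 of the 11 were lower, with a median of -0.22. Of the 22 genes with close replicates, 11 were lower in replicate 1, and the median was -0.03 in each replicate. Among the 22, the largest differences in either direction were 0.45 in replicate 1, for rpl32, and 0.90 in replicate 2, where rpl14 was lower in DTT. The split was made after the values were seen and uses the same arrays as the changes, so it is a description without a test. Cytosolic 25S ribosomal RNA, read by a control probe set of the array, also lay lower in replicate 2 and in DTT, with signals of 847.8 (DTT 1) and 24.4 (DTT 2), against 2525.6 (control 1) and 100.5 (control 2). The 5S control probe set had 399.2 and 1.0 in DTT, against 452.4 and 7.0 in control. The part of whatever sets these RNAs in the values of the 11 genes was not tested.

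Distances of this kind were also seen in other plastid genes. Of 33 tested probe sets for photosystem, cytochrome, ATP synthase and rubisco genes of the plastid, 21 were at least 2-fold higher on DTT 1 than on DTT 2 and 16 on control 1 than on control 2, against 11 and 11 of the 33 members. In replicate 2, 8 of these 33 genes were at least 2-fold lower in DTT, against 3 of the members, and in replicate 1, 0 against 1. The difference between these sets of genes was not tested.

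Neighbouring genes differed in how far their replicates lay apart. In the RefSeq gene order, ndhF, rpl32, ccsA, ndhD, psaC, ndhE, ndhG, ndhI, ndhA, ndhH and rps15 follow each other, and the stretch from ndhH to ndhD is known as a polycistronic unit. In it, the ratio of replicate 1 to replicate 2 was 7.52 in DTT and 2.33 in control for ndhH, 1.06 and 0.946 for ndhA, 1.09 and 1.33 for ndhI, 19 and 8.68 for ndhG, 23 and 6.58 for ndhE, and 3.40 and 2.08 for ndhD. Thus ndhI and ndhA had close replicates between neighbours that did not. The photosystem I gene psaC, which lies between ndhE and ndhD and is no member, had 691.0 and 13 in DTT, against 566.0 and 53.7 in control. Its log2 changes of 0.29 and -2.05 had the signs of those of ndhE. Outside the unit, the ratio was 28.7 and 13.5 for ndhF, while its neighbour rpl32 had 1.46 and 1.23.

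The genes rps2, rpoC2, rpoC1 and rpoB also lie side by side, and rpoB, rpoC1 and rpoC2 are known to be transcribed together from a promoter before rpoB. The ratio of replicate 1 to replicate 2 was 23.5 in DTT and 13.6 in control for rpoB, against 1.40 and 1.58 for rpoC1, 1.60 and 1.71 for rpoC2 and 1.49 and 1.60 for rps2. Here a single gene at the end of the row stood apart. In another row, ndhC, ndhK and ndhJ, the ratios were at most 1.49 in DTT and lay between 1.36 and 1.42 in control. Of the ribosomal row from rps19 to rpoA, the members rps19, rpl22, rpl14, rpl36 and rpoA had ratios between 0.865 and 1.76 in DTT and between 0.723 and 1.56 in control. All members of these last rows thus had replicates within 2-fold of each other.

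**Figure D4:**
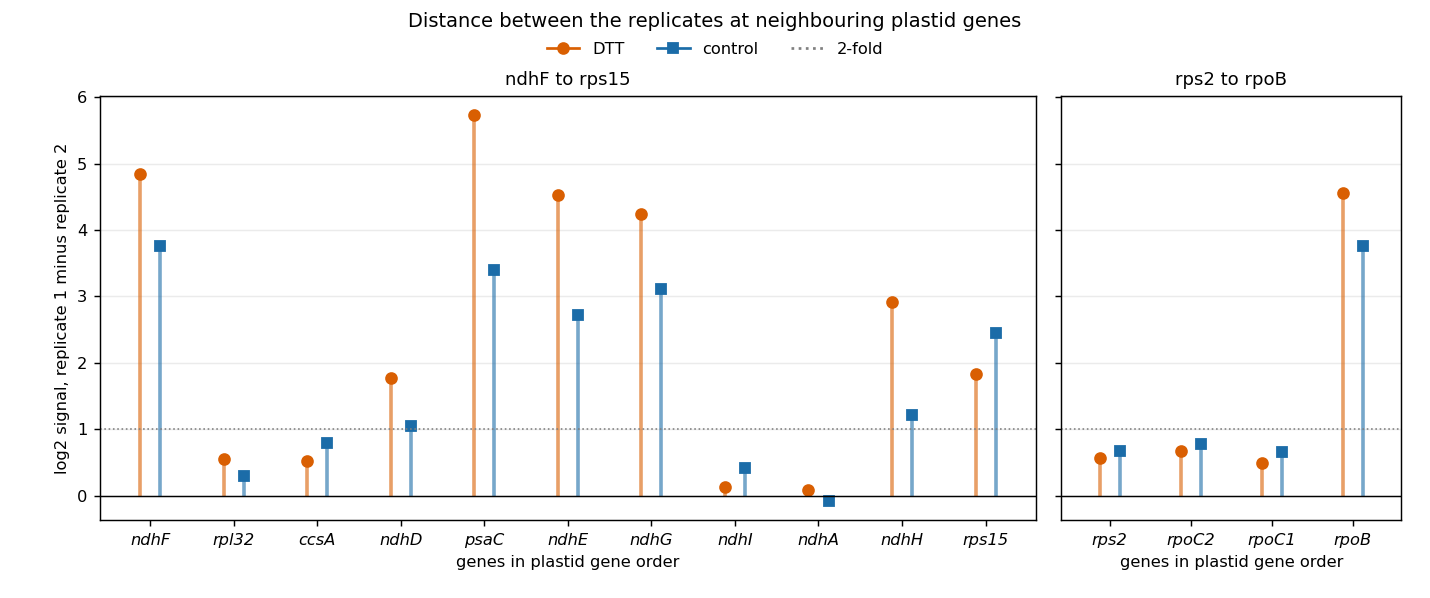
The log2 signal of replicate 1 minus replicate 2 is plotted for DTT (orange circles) and control (blue squares) at neighbouring plastid genes in their order along the chromosome, with a dotted line at 2-fold. Close replicates at ndhI and ndhA stand between larger distances at ndhG and ndhH, and in the right panel only rpoB lies above the dotted line.

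Few nuclear genes that serve the same complexes could be set beside the members. Probe sets annotated to a single gene were found for 3 of 18 nuclear NDH subunit genes listed, and 0 of the 3 passed the test. NDHS, of the ferredoxin-binding part, had signals of 220.4 and 358.7 in DTT, against 250.7 and 340.1 in control, and NDHN, of the peripheral arm, had 146.0 and 511.6 in DTT, against 166.0 and 410.6 in control. For these genes replicate 2 was the higher in each group, opposite to the direction in the 11 members, and the mean log2 changes were -0.05 and 0.07. A broad list for NDH assembly, RNA editing and RNA processing held 25 genes, not all of them specific to NDH. Of these, 10 had a probe set, 5 were tested (CRR41, CRR42, OTP84, PAC and PGRL1B) and 0 passed. The median log2 change of the 5 was 0.16, which is the value of PAC. CRR41, an assembly factor, had a change of 0.30 and OTP84, an RNA editing factor, 0.18. For the Clp protease and acetyl-CoA carboxylase, 1 of 19 nuclear genes was tested and did not pass, CLPP4, with 417.9 and 876.9 in DTT against 417.4 and 657.7 in control. For plastid cytochrome assembly 2 of 7 were tested and 0 passed, with changes of 0.13 for CCB3 and 0.01 for CCDA, a thylakoid carrier of reducing equivalents. The signals of CCB3 were low, from 14.8 to 45.2, and its changes were -0.55 in replicate 1 and 0.81 in replicate 2. The nuclear genes of plastid transcription, plastid ribosomal proteins and plastid RNA stability that were listed had no probe set with a single annotated gene and were not analysed here.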

How the data were processed

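RNA of 2 DTT and 2 control samples was biotin-labelled and hybridized to ATH1 arrays, per the labels' protocols. The authors deposited 1 linear intensity (signal) per probe set and array, and the submitters' processing notes name MAS5. Its version and settings are not given here. On every array the deposited signals average 100 once 2% are trimmed from either end, so a change of total RNA cannot be seen. MAS5 signals are noisiest when low.

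Groups and replicate numbers came from the titles. Signals of 0 were set to 0.1, log2 was taken without further normalization, and the 64 control probe sets were used for checks. Of the other 22746 probe sets, those under the 40th percentile of mean log2 signal were left out, which left 13648. Limma 3.58.1 under R 4.3.3 (lmFit, eBayes with a mean-variance trend, no block) was fitted to all 4 arrays, with Benjamini-Hochberg adjustment over all probe sets tested. The fit was also run on simulated data in which all probe sets had the same noise. Noise in these signals depends on their level, so that run does not show which changes the 4 arrays could detect. Plots were drawn with matplotlib 3.10.9 under Python 3.11.15.

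Names came from the platform annotation, in which 13513 non-control probe sets had 1 gene, 503 several and 8730 none, and RefSeq gave the gene order. Signals on all 4 arrays are given for members whose groups do not overlap, that differ at least 2-fold within a replicate, or that have the highest or lowest mean of a subgroup, and for further members that a comparison needed. From a list without a member past the test, the 2 genes of smallest p are named. The members, lists and rules were chosen with earlier results of these data known. List symbols that match another gene in RefSeq were left out.

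The results were recomputed with the replicate block, without each array, with robust eBayes or without the variance trend, with quantile normalization or one median per array, after adding 16 or 64 to each signal, and with the filter removed or raised to the 60th percentile.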

Additional observations from a re-analysis of the deposited data

Results flagged for a closer look

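A probe set of rps12, a 30S ribosomal protein gene that is trans-spliced, was outside the 33 members because its annotation holds several gene entries. Both of its DTT arrays lay above both control arrays, with a lowest DTT signal of 3069.5 and a highest control signal of 2930.0, as for 8.01% of all probe sets tested. A second rps12 probe set did not share this, with signals of 1322.8 and 863.4 in DTT and 778.6 and 1005.3 in control.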

How the results depend on the processing

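Of 33 members, 0 were called under every alternative run. With the filter at the 60th percentile 32 of them were tested, since ndhF fell below it. The count over all probe sets was 0 as reported and 126 with the replicate block; without single arrays it ranged from 0 to 3 (3 without DTT 1), and it was 0 otherwise. The labels do not say that replicate numbers pair the samples; same-numbered arrays deviated together from their group means (r = 0.75 over 13648 probe sets). The block left all log2 changes as they were, and the smallest adjusted p of a member became 0.0510, for ndhH and rps15. With log2(signal + 64) the median log2 change was -0.12 for all members and -0.0904 for the RNA polymerase genes. With one median per array it was -0.0889 for all members, -0.0782 for the RNA polymerase genes and -0.0037 for the ribosomal genes. That setting raised every change by the same 0.0881. The median over all probe sets tested moved with it, from -0.0075 to 0.0806, so the members kept their place against it. By that shift 4 members of near-zero change (ndhA, rpl22, rpoC2 and rps19) turned sign. The other medians of members moved by less than the spread between replicates under scaling, pseudocounts and filters. Why medians moved with log2(signal + 64) was not tested. Leaving out an array unbalances replicate number. The median then ranged from -0.43 to 0.23 for all members, from -0.94 to 0.31 for NDH, from -0.53 to 0.51 for RNA polymerase, from -0.26 to 0.18 for ribosomal and from -0.46 to 0.28 for other genes. It was above 0 in all 5 sets without control 1 or DTT 2, and 15 and 18 members turned sign there, against 5 without control 2 and 4 without DTT 1. Low signals in replicate 2, under the filter level for ndhF and rps14 in both groups and for rpoB in DTT, limit what the folds of these genes can show.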

Other observations

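Genes of the same families whose probe sets were not members showed both kinds of replicate distance. The NDH gene ndhB, with signals of 279.9 and 26.2 in DTT and 362.5 and 25 in control, and ycf2, with 200.8 and 6.3 in DTT and 307.0 and 22.9 in control, were low in replicate 2 in both groups. Their log2 changes were -0.37 and 0.07 for ndhB and -0.61 and -1.86 for ycf2. The call of ycf2 depended on the replicate block, with a limma adjusted p of 0.9999 without it and 0.0223 with it, while ndhB was called by neither fit. The genes rpl2, rpl16, rpl23, rps3, rps4, rps7, rps12 and ycf1 had ratios of replicate 1 to replicate 2 from 0.914 to 1.68 in DTT and from 0.774 to 1.81 in control. The 50S protein gene rpl16 lay lower on each DTT array than on either control array, with 2065.1 and 2259.9 in DTT and 2474.4 and 2807.9 in control (log2 -0.26 and -0.31). It was singled out after its values were seen and has no test of its own.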
